A study of Mus musculus with 6 samples.

Results

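The genes described here are 4 serpins, Serpina3n, Serpine2, Serpinf1 and Serpinb1a, and 4 proteins of the acute-phase and innate immune response, Lcn2, Saa3, Chil1 and Hp. They were chosen by name, with their values in this experiment already known, as 8 of the 20145 genes that the array's probes could be matched to. Their own values are therefore given as a description, with no test, and tests are given only for other genes. Every non-control probe whose RefSeq accession belongs to one of them was taken: 9 probes in all, 2 for Serpinf1 and 1 for each of the others.

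RNA came from whole heart ventricle tissue of mice on the C57bl/6j background, all male and 11 to 12 weeks old, and each of 6 one-colour Agilent arrays held 1 mouse. In the Tead1 icKO group (3 mice), both Tead1 alleles were floxed and Myh6-CreER, driven by the cardiomyocyte myosin heavy chain promoter, supplied a Cre recombinase that tamoxifen activates. The control group (3 mice) had floxed Tead1 and was also given tamoxifen. No Cre is named for the controls, so loss of Tead1 and the presence of activated Cre cannot be told apart here. How long after tamoxifen the tissue was collected is not stated in the labels. The samples are labelled as biological replicates. Levels are given as a multiple of the signal at the array's own 75th percentile, which was 189 to 233 intensity units in controls and 292 to 348 in icKO arrays, and differences are log2 values, icKO minus control. In whole tissue, fewer cells of a type and less RNA per cell cannot be told apart.

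Serpins fold into a shared structure in which an exposed loop baits a serine protease, and the inhibitor is used up as it traps the enzyme. Others of the family have lost this activity and serve as hormone carriers, chaperones or signals. Acute-phase proteins are those whose production, in liver and in injured tissues, rises or falls with cytokines such as interleukin 6 and interleukin 1, largely through STAT3, C/EBP and NF-kB factors. Serpinb1a differs from the other 7 in where it acts: clade B serpins lack a classical secretion signal and act mainly inside the cell, so the word secreted does not cover it.

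The promoter windows of these genes show which of the letters that such factors recognise lie close to the start of transcription. Windows were taken from RefSeq for build GRCm38.p6, 250 bases before to 50 bases after the start, and 6 of the 8 genes matched. No window was used for Serpinb1a or Hp. The 4 shown are the windows that held a match, those of Lcn2, Saa3 and Chil1, and that of Serpina3n for comparison, because its difference between the groups was among the largest. Each is the stretch of 250 bases before the start, read 5′ to 3′ along the gene's strand, with motif matches in capitals. Lcn2 lies at chr2:32387740-32387989 on the minus strand, Saa3 at chr7:46715677-46715926 on the minus strand, Chil1 at chr1:134181906-134182155 on the plus strand and Serpina3n at chr12:104406458-104406707 on the plus strand.
Lcn2: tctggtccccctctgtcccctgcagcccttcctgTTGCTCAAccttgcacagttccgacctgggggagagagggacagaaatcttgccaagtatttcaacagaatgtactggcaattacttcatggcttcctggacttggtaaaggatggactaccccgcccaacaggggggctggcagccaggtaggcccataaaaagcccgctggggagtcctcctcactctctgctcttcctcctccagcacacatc
Saa3: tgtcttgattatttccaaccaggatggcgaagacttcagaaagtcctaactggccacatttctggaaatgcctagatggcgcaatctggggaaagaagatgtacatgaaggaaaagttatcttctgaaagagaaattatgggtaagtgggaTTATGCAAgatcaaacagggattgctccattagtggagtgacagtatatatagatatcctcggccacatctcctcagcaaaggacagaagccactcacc
Chil1: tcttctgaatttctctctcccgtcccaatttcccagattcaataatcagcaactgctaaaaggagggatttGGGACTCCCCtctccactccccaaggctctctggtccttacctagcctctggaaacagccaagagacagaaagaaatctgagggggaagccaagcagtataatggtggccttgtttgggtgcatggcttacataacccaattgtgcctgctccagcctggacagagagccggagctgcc
Serpina3n: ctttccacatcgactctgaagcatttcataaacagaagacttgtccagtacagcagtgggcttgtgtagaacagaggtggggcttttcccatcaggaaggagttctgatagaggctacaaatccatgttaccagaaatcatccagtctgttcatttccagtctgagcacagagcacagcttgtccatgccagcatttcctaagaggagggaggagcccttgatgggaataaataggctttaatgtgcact

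The letters of 5 motifs were searched on both strands of the whole windows. The C/EBP letters TTGCNNAA were found in 2 of 6 windows. Lcn2 held TTGCTCAA, whose first base lies at -216 from the start, and Saa3 held TTATGCAA, the same motif read from the other strand, at -99. Across all 32851 windows of the table, 10.8% held these letters. The kappa-B consensus was found in 1 of 6, as GGGACTCCCC in Chil1 at -179, where the same letters match on both strands, and in 8.46% of all windows. The STAT letters TTCNNNGAA were in 0 of 6 windows and in 8.3% of all, the AP-1 letters TGANTCA in 0 of 6 and in 7.81% of all, and the TEAD letters GGAATG in 0 of 6 and in 14.7% of all. No match overlapped that of another motif. A match is a description of the letters, and their absence says only that they are not in these windows.

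Serpina3n, a secreted inhibitor related to human alpha-1-antichymotrypsin that is induced in many inflamed tissues, had the largest difference among those of these genes that were measured in both groups. Its level was 0.412, 0.171 and 0.201 times the 75th percentile in control replicates 1 to 3, and 11.3, 14.2 and 7.44 in icKO replicates 1 to 3. The groups did not overlap: the lowest icKO array was 18.1 times the highest control. The log2 difference was 5.46 ± 0.38 (SE, n = 3 per group), 43.9-fold. Only 9 of the 12974 named genes tested had a larger fitted difference towards icKO. The value fell within 5.21 to 5.84 when each array was left out in turn, and was 4.46 with normexp background correction.

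Serpinf1 encodes pigment epithelium-derived factor, a serpin without protease inhibitor activity that acts on vessels, matrix and metabolism. Its brighter probe read 12.1, 6.88 and 9.13 in controls and 51.0, 63.1 and 46.9 in icKO. All icKO arrays were above all controls, and the lowest was 3.88 times the highest control. The difference was 2.55 ± 0.23 (SE). The dimmer probe of the same transcript read 1.22, 0.873 and 1.15 in controls and 6.55, 6.97 and 5.91 in icKO, a difference of 2.60 ± 0.15. The 2 probes therefore gave differences within their SEs of each other, and in both, control 2 was the lowest array and icKO 2 the highest.

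Serpine2, also called protease nexin-1, is a secreted inhibitor of thrombin and of the plasminogen activators that sits on cell-surface glycosaminoglycans. Its levels were 0.365, 0.320 and 0.345 in controls and 0.744, 0.860 and 0.813 in icKO. Replicates lay close together for this gene, with the highest array of a group only 1.14 times the lowest in controls and 1.16 times in icKO. The difference was 1.23 ± 0.10 (SE), 2.35-fold. It depended on processing by more than this spread, at 0.71 with normexp background correction and 1.67 when arrays were scaled to their spike-in controls.

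Serpinb1a inhibits neutrophil elastase, cathepsin G and proteinase 3 and is abundant inside neutrophils. It read 1.43, 1.31 and 1.61 in controls and 2.07, 5.12 and 4.33 in icKO. The first icKO array was near the controls, at 1.28 times the highest of them, while the other two stood well above. The difference of 1.31 ± 0.33 (SE) rested on those arrays to a large part: it was 1.70 without icKO 1 and 1.05 without icKO 2. Control 3 and icKO 1, which lay in the same column of the slide, differed by 0.36.

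**Figure D1:**
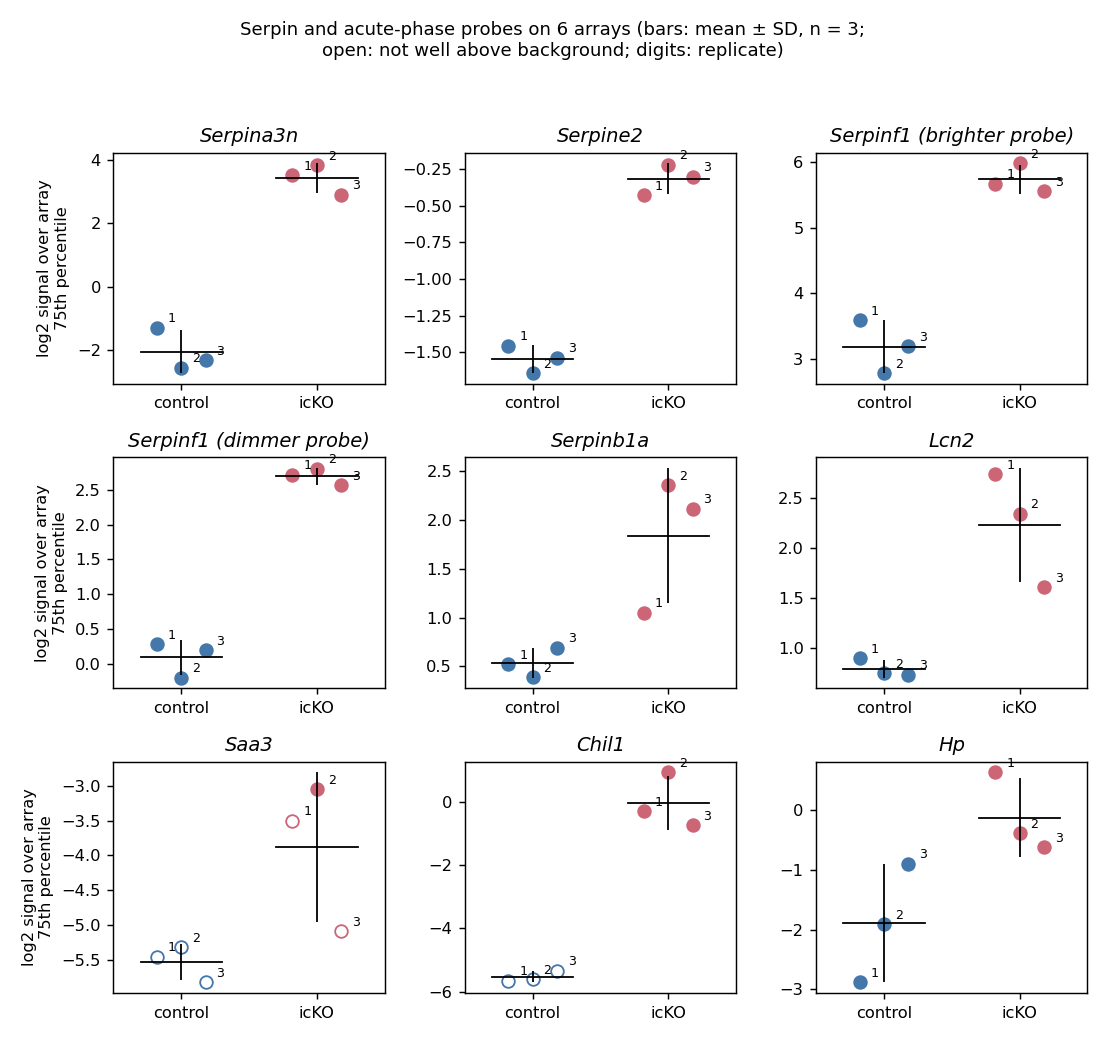
Level of each probe on each array, as log2 of its signal over the array's 75th percentile, in 3 control (blue) and 3 icKO (red) hearts, with replicate numbers, and with the mean and SD as black lines; open circles were not well above background. In all 9 panels the 3 icKO arrays lie above the 3 controls, closely grouped for Serpine2 and Serpinf1 and widely spread for Saa3 and Hp; panels have their own vertical scales, which do not start at a common level.

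Chil1 encodes a chitinase-like glycoprotein (BRP-39, the mouse counterpart of YKL-40) that binds chitin but does not cleave it and is made by macrophages and other cells in injured tissue. It was well above background on none of the control arrays, where its measured signal was 0.0199, 0.0205 and 0.0248, and it read 0.814, 1.90 and 0.597 in icKO. Because the controls give only a bound, the icKO level is given as at least 11.9-fold higher. The fitted difference, which uses the control signal below background, was 5.49 ± 0.41 (SE), and normexp correction gave 2.04. The icKO arrays differed among themselves by 3.18 times, and the bound was 8.52-fold without icKO 2 and 15.2-fold without icKO 3.

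Lcn2, lipocalin 2, binds bacterial iron-carrying siderophores and is stored in neutrophil granules as well as made by stressed epithelium and heart muscle. The controls lay close together at 1.86, 1.68 and 1.66, and the icKO arrays read 6.67, 5.08 and 3.05. Here icKO 1 was the highest and icKO 3 the lowest, at 1.64 times the highest control. The difference was 1.44 ± 0.28 (SE), 2.71-fold, and 1.88 with spike-in scaling.

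Hp, haptoglobin, binds haemoglobin released from red cells and hands it to the macrophage receptor CD163. The controls read 0.136, 0.266 and 0.537, a 3.95-fold spread, and the icKO arrays read 1.56, 0.765 and 0.653. The groups did not overlap, but narrowly: icKO 3 was 1.21 times control 3. The difference was 1.77 ± 0.55 (SE), with the largest error of the 7 genes measured, and it ranged from 1.28 without control 1 to 2.27 without control 3.

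Saa3 is a serum amyloid A apolipoprotein made mostly outside the liver, by macrophages and fat cells among others. Its probe was well above background on 1 of 6 arrays, icKO 2, where it read 0.121. The other measured signals were 0.0228, 0.0250 and 0.0176 in controls, 0.0884 on icKO 1 and 0.0293 on icKO 3. The gene did not pass the filter on dim probes, which the other 7 did, and no fold is given for it because its icKO mean lay below the lowest measurable level. Transcripts of its relatives Saa2 and Saa4 were not well above background on any array.

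Across all 9 probes, the 3 icKO arrays were above the 3 controls. The same was true of 21.6% of the 22163 features with a value on all 6 arrays, and nothing can be read from it, since these genes were picked with their values known. Under the 18 other settings tried these genes gave 126 values, and all 126 were higher in icKO. Much of this was fixed in advance. With the arrays fully separated, leaving out an array cannot change a sign, and median and spike-in scaling only add positive shifts. The settings show how far the sizes move, not whether the direction holds. On the slide, 2 controls lay in column 1, 2 icKO arrays in column 3 and 1 array of each group in column 2. Every probe was higher in icKO within row 1, within row 2 and between the arrays of column 2. With all icKO arrays above all controls this could not have come out otherwise, so it says nothing about slide position. Position across the slide and group cannot be told apart.

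**Figure D2:**
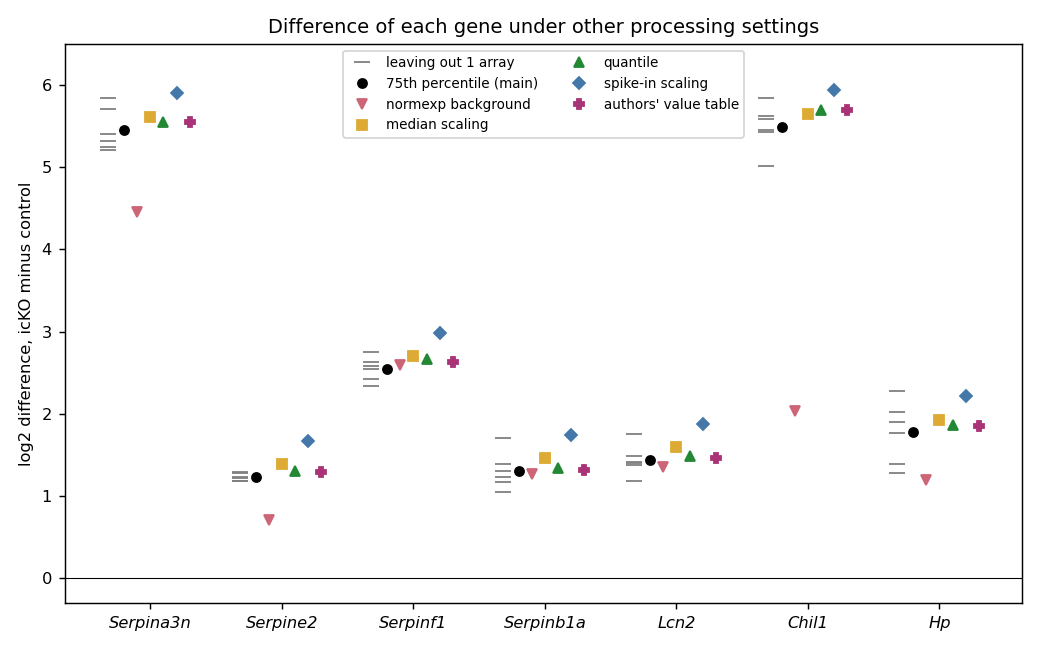
Log2 difference, icKO minus control, of the 7 genes that passed the dim-probe filter, under the main processing (black), leaving out each array (grey dashes) and 5 other ways of correcting background or scaling (coloured). All values lie above 0; the widest range is that of Chil1, from 2.04 with normexp correction to 5.94 with spike-in scaling, whose control signal is below background.

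The order of the icKO arrays differed between these genes. Replicate 2 was the highest icKO array for 5 of the 7 genes, the 4 serpins and Chil1, and replicate 1 was the highest for Lcn2 and Hp. Replicate 3 was the lowest in 5 of 7. S100a8 and S100a9, the subunits of the neutrophil and monocyte protein calprotectin, were also highest on icKO 1: S100a8 read 2.50, 0.59 and 0.55 in icKO replicates 1 to 3 on the log2 scale, and -1.65, -2.08 and -2.70 in controls. Both rose, by 3.35 ± 0.57 (SE; adjusted p = 0.00505, limma) and 3.02 ± 0.56 (adjusted p = 0.00703). Retnlg, another neutrophil transcript, was also highest on icKO 1 and rose at least 4.60-fold (adjusted p = 0.00597), though the call was lost with normexp correction (adjusted p = 0.0721). The other 3 neutrophil markers tested were not called higher. Elane read -0.88, -0.67 and -0.66 in icKO, lowest on icKO 1, against 0.45, 0.12 and -0.02 in controls, and fell. Csf3r differed by -0.27 ± 0.09 (adjusted p = 0.0526), with all icKO arrays below all controls and a sign that turned with spike-in scaling (0.18). Among the icKO arrays it was highest on icKO 1, at 6.75 against 6.63 and 6.62. Camp differed by -0.29 ± 0.17 (adjusted p = 0.203), with groups that overlapped, and by 0.16 with spike-in scaling. Among the icKO arrays Camp was also highest on icKO 1, at -2.15 against -2.31 and -2.71. Hbb-bs, an adult beta-globin, read 7.82 on icKO 1 and 6.03 and 6.42 on the others, against 5.48, 5.21 and 4.60 in controls. Its rise of 1.66 ± 0.48 (adjusted p = 0.0324) missed the threshold without control 1, 2 or 3 or icKO 3, with adjusted p of 0.0561 to 0.0939. Adgre1, the macrophage F4/80 antigen, was highest on icKO 2, at 2.09 against 0.71 and 1.28. Retnlg, Csf3r, Camp and the globins were chosen after their values were seen. Every gene is highest on 1 of the 3 icKO arrays, and the share of all features highest on each is not given. A shared order therefore says nothing about where a transcript came from.

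**Figure D3:**
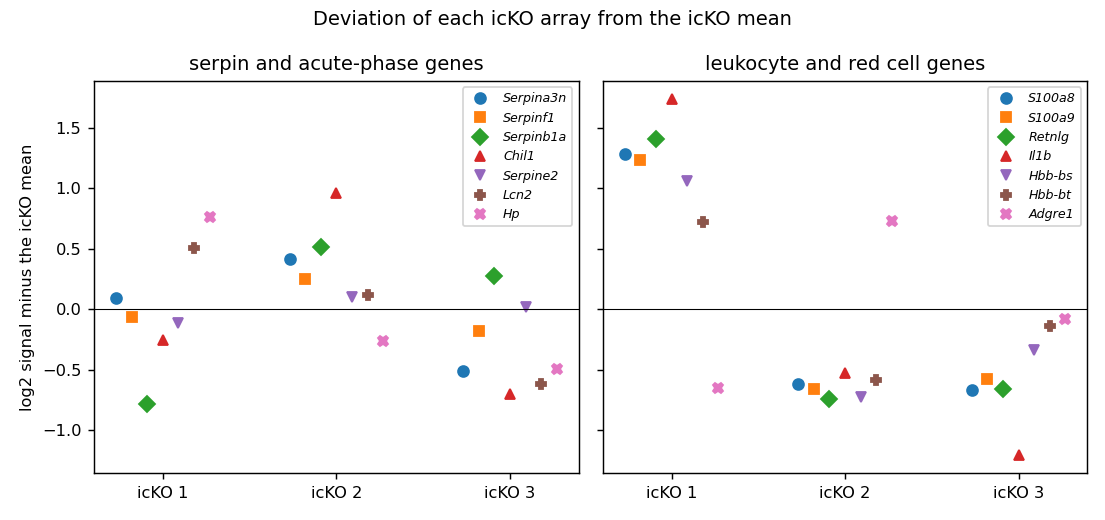
Deviation of each of the 3 icKO arrays from the icKO mean on the log2 scale, for 7 serpin and acute-phase genes (left) and 7 leukocyte and red cell genes (right); each symbol is a gene. Lcn2 and Hp are highest on icKO 1, as are S100a8, S100a9, Retnlg, Il1b and the globins, while the serpins, Chil1 and Adgre1 are highest on icKO 2. Retnlg and the globins were chosen after their values were seen, and Elane, which is not plotted, was lowest on icKO 1. The share of all features highest on each icKO array is not given, so nothing about a source can be read from a shared order.

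Markers of several cell types differed between the groups, and their part in the differences above was not tested. Over all 22278 features, 16% rose and 28.7% fell, and the marker counts are to be read against these shares. Counts near them, such as the endothelial falls, say nothing about a cell type. Of 14 macrophage markers tested, 11 rose and none fell. The summed level of the 15 with a probe was 82.0 to 108 times the 75th percentile in controls and 167 to 205 in icKO; sums here and below are over all genes of a list with a probe, tested or not. Fibroblast markers rose in 8 of 14 and fell in 1, with sums of 449 to 663 and 975 to 1122.5. Neutrophil markers rose in 3 of the 6 tested and fell in 1, Elane, and 6 of the 15 with a probe, Ngp among them, were not above background on any array. The sum over the 15 overlapped between groups, at 122 to 129 and 107 to 136, but Csf3r made up 78.9% to 98.2% of it. Without Csf3r the 3 controls summed to 3.74, 2.90 and 2.29 and the 3 icKO arrays to 28.7, 8.28 and 8.69, with no overlap and with icKO 1 the highest. On the icKO arrays the brightest of the genes left were S100a9, at 4.34, 2.45 and 2.53 on the log2 scale, and S100a8. This sum therefore mostly restates the rise of these genes given above, and no sum without them is given. The hepatocyte markers Alb and Apoa1 did not pass the dim-probe filter, being above background on 1 of 3 and 0 of 3 control arrays and on no icKO array. For Alb that array was control 2, at -2.52 on the log2 scale against -5.47 and -5.81 in controls 1 and 3. Itih2, an acute-phase protein, also stood out on control 2, at -0.44 against -4.71 and -5.73, while Ahsg did not. The source of this signal was not tested. Of the 5 hepatocyte markers tested, 3 rose and 2 fell. Sums over the 15 with a probe were 9.01 to 10.2 and 14.9 to 20.4, and without Ahsg, the brightest, 7.59 to 8.75 and 8.68 to 9.0, which overlap. Epicardial markers rose in 2 of the 7 tested and fell in 0. Sums over the 10 with a probe were 4.33 to 7.68 and 7.47 to 13.0, which overlap, and without Msln, the brightest, 3.77 to 4.42 and 7.02 to 8.58, which do not. Sums without the brightest gene were added after the data were seen. Endothelial markers rose in 1 of 14 and fell in 5, with sums of 545 to 566 and 428 to 605. The endothelial falls numbered 3 without control 1 and 2 without control 3 or icKO 3, the epicardial rises 1 without control 1 or icKO 3, the hepatocyte falls 1 without control 2 or 3 or icKO 1 or 2, and the neutrophil falls 2 without icKO 1. Cardiomyocyte markers fell in 10 of 12 and rose in 0, with sums of 10105 to 12230 and 6522 to 7220, and fell in 3 with spike-in scaling and in 4 with quantile normalization. All 12 were above background on every array. Tead1 itself differed by -0.40 ± 0.11 (adjusted p = 0.0300), and by 0.04 with spike-in scaling. It missed the threshold without control 1 or 3 or icKO 2 or 3, at adjusted p of 0.0857 to 0.0900. Whether its probe lies in the deleted part is not given, so it checks no label.

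Counts of the related genes below are read against all 22278 features, of which 3573 (16%) rose and 6401 (28.7%) fell at an adjusted p under 0.05, with a median difference of -0.14. Risers made up 35.8% of calls, 54.6% with median scaling, 45.8% with quantile normalization, 81% with spike-in scaling and 43.8% when fitted on the authors' deposited value table. Relative to the main scaling, every difference is larger by 0.16 with median scaling and by 0.44 with spike-in scaling, so that small falls depend on the choice. The lists were written with earlier results of these data known.

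Among other serpins, 8 of the 23 tested (59 listed) rose and 7 fell, with a median of -0.10. Serpina3c, Serpina3f, Serpina3h and Serpina3i passed the dim-probe filter only through the icKO arrays, so they could hardly have come out lower. With signal required on all 6 arrays, 4 rose and 6 fell. Serping1, the complement inhibitor of C1 esterase, rose from 5.24, 4.68 and 4.87 in controls to 6.26, 6.60 and 6.26 in icKO on the log2 scale (1.44 ± 0.18 SE, adjusted p = 0.00169), and the clade B serpin Serpinb6a rose by 0.74 ± 0.10 (adjusted p = 0.00268). In the Serpina3 cluster to which Serpina3n belongs, Serpina3c, Serpina3f and Serpina3i were above background on no control array and on all icKO arrays, at least 4.96-fold, 3.58-fold and 4.39-fold higher (adjusted p = 0.000562, 0.000747 and 0.000974), with fitted differences of 1.02, 0.59 and 1.19 under normexp correction. Serpina3h and a second Serpina3i probe were likewise above background on all icKO arrays and on no control. A second Serpina3f probe was above background on 1 icKO array and no control, with groups that overlapped. Serpina3b differed by -0.59, also with groups that overlapped. These genes are close copies of one another and of Serpina3n, and whether their probes also catch Serpina3n RNA was not tested. Not every serpin moved that way. Serpinb6b fell by 1.44 on the log2 scale (SE 0.19, adjusted p = 0.00201) and Serpina9 by 0.76 (SE 0.15, adjusted p = 0.00947), the latter at adjusted p = 0.191 with spike-in scaling. Serpinh1, the collagen chaperone HSP47, differed by -0.96 ± 0.34 (adjusted p = 0.0595). The Serpina1 genes, mouse versions of alpha-1-antitrypsin and again near-identical copies, gave probes that disagree. Serpina1c differed by -1.75 ± 0.47 (adjusted p = 0.0248), but this was lost without control 3, icKO 1 or icKO 2 (adjusted p = 0.0582 to 0.0737) and with spike-in scaling (adjusted p = 0.0725). The brighter probes of Serpina1a and Serpina1e differed by -1.75 and -2.02 (adjusted p = 0.0417 and 0.0339), with the icKO arrays below the controls. These calls were lost in 9 and 8 of the 18 other settings, that of Serpina1a without control 2 among them (adjusted p = 0.104). A second kept probe of each differed by -0.34 and -0.0043, with groups that overlapped. Without control 2 the second probe of Serpina1e is the brighter, and the gene's difference is then 0.27. Serpina1c and the brighter probes of Serpina1a and Serpina1e had their highest values on control 2, at -0.11, -0.06 and 0.36 on the log2 scale. Control 2 was also the only array with Alb above background. The Serpina1 genes were singled out after their values were seen. The number that fell was 3 without control 3, 4 without icKO 2, and 1 with spike-in scaling.

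Among other acute-phase proteins, 9 of the 15 tested rose and 2 fell, with a median of 1.61, while 18 of the 33 listed did not pass the dim-probe filter. C3, the central complement component, rose from 5.05, 5.01 and 4.84 on the log2 scale to 6.09, 7.14 and 6.49 (1.61 ± 0.26 SE, adjusted p = 0.00435). Lbp, which presents bacterial lipopolysaccharide to CD14, rose by 2.20 ± 0.25 (adjusted p = 0.00133), the metal-binding Mt2 by 1.79 ± 0.14 (adjusted p = 0.000399) and fibronectin, Fn1, by 1.84 ± 0.16 (adjusted p = 0.000554). Vtn, vitronectin, fell by 1.15 on the log2 scale (SE 0.16, adjusted p = 0.00235). Lrg1 differed by -0.53 ± 0.16 (adjusted p = 0.0366), a call lost without any one array but icKO 1 (adjusted p = 0.0560 to 0.105), and with all 5 other background and scaling settings; without any one array but icKO 1, the number of the list that fell was 1. Of the classical liver reactants, Saa1 differed by -0.15 ± 0.11 (adjusted p = 0.291), its arrays overlapped, and its sign turned with median scaling (0.01) and spike-in scaling (0.29). Orm1 and Orm2, the orosomucoids, were not well above background on any array.

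Cytokines and signalling genes that act upstream of these proteins in other settings moved in part. In the interleukin 6 and STAT3 list, 6 of the 21 tested (24 listed) rose and 2 fell, with a median of 0.22. Il6 was above background on no control and on all icKO arrays, at least 1.60-fold higher (adjusted p = 0.000581), a dim probe whose fitted difference was 0.27 with normexp correction. Osmr, the oncostatin M receptor, rose from 1.86, 1.76 and 1.70 to 2.78, 3.0 and 2.85 (1.1 ± 0.10, adjusted p = 0.000701), and Socs3, a STAT3-induced feedback inhibitor, rose by 0.96 ± 0.19 (adjusted p = 0.00917). The shared receptor chain Il6st differed by 0.08 ± 0.12 (adjusted p = 0.619) and Stat3 by 0.39 ± 0.16 (adjusted p = 0.0830), although Stat3 passed in 7 of 18 other settings. The number that fell was 1 without control 1 or icKO 3 and 0 without control 2 or 3, and with spike-in scaling 12 rose and 0 fell.

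The list of interleukin 1, TNF, NF-kB and C/EBP genes had 11 of the 25 tested (29 listed) rising and 1 falling, with a median of 0.32. Cebpd, the C/EBP factor most closely tied to acute-phase induction, rose from 2.91, 3.86 and 3.20 to 5.91, 5.67 and 6.03 (2.55 ± 0.25, adjusted p = 0.000798). Its partner Cebpb differed by 0.74 ± 0.22 (adjusted p = 0.0338), lost without control 2 or any icKO array (adjusted p = 0.0594 to 0.0923). The receptors Il1r1 and Tnfrsf1a rose by 1.20 ± 0.15 (adjusted p = 0.00165) and 0.95 ± 0.10 (adjusted p = 0.00109). Nfkb1 differed by 0.22 ± 0.14 (adjusted p = 0.248), and Tnf was well above background on no array. Il1b was above background on all icKO arrays only, at least 2.58-fold higher (adjusted p = 0.0330), with icKO 1 the highest; this was lost without any control array or icKO 2 (adjusted p = 0.0550 to 0.0950) and with normexp correction (adjusted p = 0.244). Without control 2 or 3 the number rising was 6, and with spike-in scaling 20 rose and 0 fell.

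The next list holds proteases, serpin targets among them but not only these, and receptors of proteases or of their serpin complexes. Of these genes, 8 of the 16 tested (26 listed) rose and 3 fell, with a median of 0.46. Plat, tissue plasminogen activator and a target of Serpine2, rose from -0.17, -0.19 and -0.11 to 0.79, 0.89 and 0.82 (0.99 ± 0.09, adjusted p = 0.000575). F2r, the thrombin receptor, rose by 1.89 ± 0.16 (adjusted p = 0.000510), and Lrp1, the endocytic receptor that clears serpin and protease complexes, by 1.43 ± 0.14 (adjusted p = 0.000817). Elane, neutrophil elastase and a target of Serpinb1a, fell by 0.92 on the log2 scale (SE 0.15, adjusted p = 0.00408), and the secreted protease Htra1 by 1.52 (SE 0.11, adjusted p = 0.000330). Ctsg and Prtn3, which encode the Serpinb1a targets cathepsin G and proteinase 3, were above background on no array. Which cells the Elane signal came from was not tested. Plau, urokinase, was above background on 1 array of each group and was not tested. Without control 2 or 3 the number rising was 5.

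Among relatives and partners of Lcn2, Chil1 and Hp, 7 of the 14 tested (23 listed) rose and 2 fell, with a median of 0.81. The lipocalins Rbp4, which carries retinol, and Apod rose by 3.72 ± 0.29 (adjusted p = 0.000399) and 2.90 ± 0.20 (adjusted p = 0.000300), Rbp4 from -2.44, -2.64 and -2.73 to 1.18, 0.50 and 1.68 and by 2.46 under normexp correction. Slc22a17, a proposed Lcn2 receptor, rose by 0.56 ± 0.13 (adjusted p = 0.0137; 0.0643 with no dim-probe filter), and Cd163, the haptoglobin receptor, by 0.77 ± 0.14 (adjusted p = 0.00707), the latter at adjusted p = 0.158 with normexp correction. Chil3, the chitinase-like protein of macrophages, read 0.97 on icKO 1, -2.92 on icKO 2 and -1.06 on icKO 3, overlapping the controls (2.22 ± 0.95, adjusted p = 0.102). The counts leaned on single arrays: 4 rose without control 2, control 3 or icKO 3, and 11 rose without icKO 2. The number that fell was 0 without control 2 or 3, 1 without control 1, icKO 2 or icKO 3, and 3 without icKO 1.

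**Figure D4:**
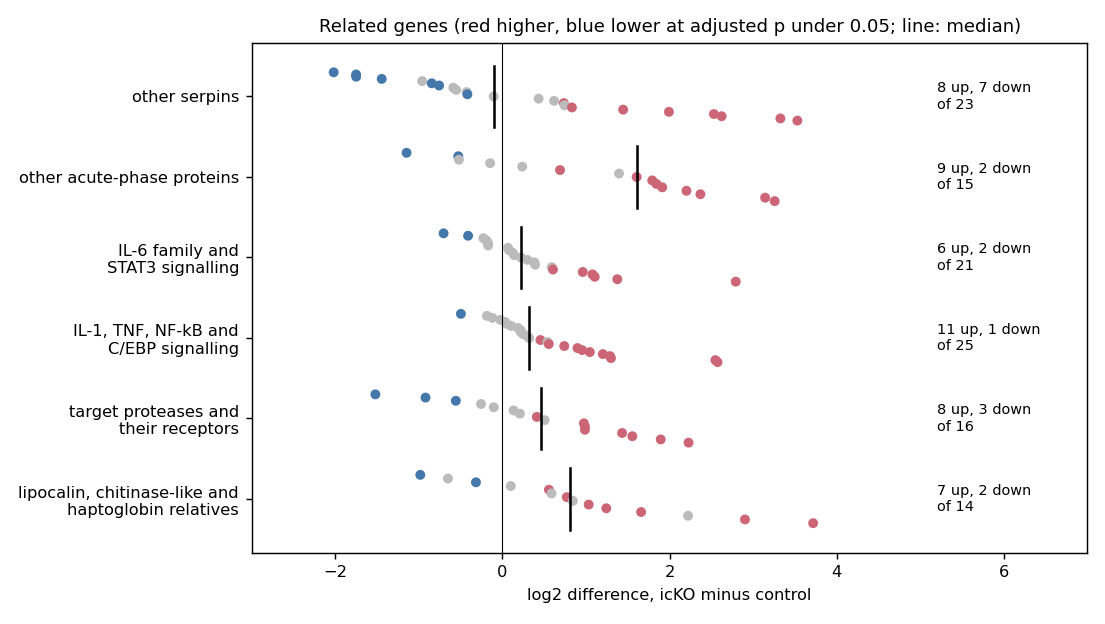
Log2 difference, icKO minus control, of each tested gene in 6 related lists, in red where it rose and blue where it fell at an adjusted p under 0.05, with the list's median as a black line; points are spread vertically only to separate them. Acute-phase proteins have the highest median, 1.61, and other serpins lie on both sides of 0 with a median of -0.10.

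The 7 genes that passed the dim-probe filter were set against 12518 other named genes that passed the same filter (clone and predicted gene names left out) by the root mean square distance between profiles over the 6 arrays, each centred on its mean, as a description only. Where a gene is not above background in controls, its distance and rank use signal below background: this holds for all controls of Chil1, Col8a2 and Lypd6b, and for some controls of Cdo1, Slc30a2 and Klhl15. The nearest to Serpina3n were Cdo1, cysteine dioxygenase, at 0.20, and Col8a2, a collagen chain, at 0.36. Serpine2 was nearest to the annexin Anxa4 at 0.05 and to Cpne8 at 0.07, and Serpinf1 to Grin2c at 0.07 and Pdgfrl at 0.11. Serpinb1a had Ddah1, at 0.14, and Slc27a3, at 0.18, as neighbours. For Chil1 they were Comp, a matrix protein, at 0.43, and Lypd6b at 0.48. Lcn2 was nearest to Ucp2, a mitochondrial uncoupling protein, at 0.14, and to Galnt6 at 0.16. Hp was nearest to Slc30a2, a zinc transporter, at 0.35, and to Klhl15 at 0.36. Such likeness is common where groups differ: 1193 named genes correlated with Serpina3n above 0.95, 1189 with Serpine2 and 1210 with Serpinf1, against 170 with Serpinb1a, 216 with Lcn2, 879 with Chil1 and 59 with Hp. All genes compared share the same 6 arrays.

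**Figure D5:**
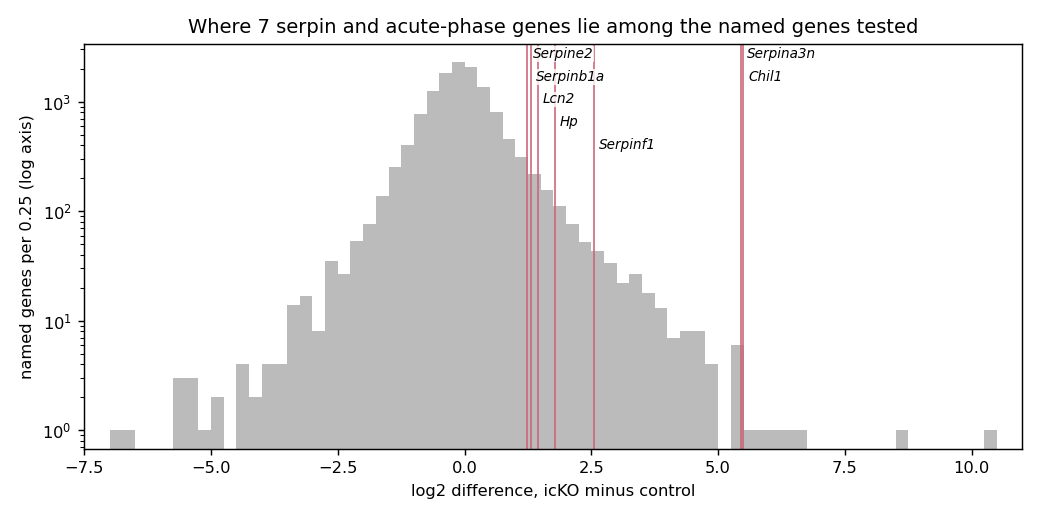
Number of named genes by log2 difference, icKO minus control, in steps of 0.25, on a log count axis, with red lines at the 7 serpin and acute-phase genes that passed the dim-probe filter. Serpina3n (5.46) lies at the upper end, where 9 named genes lie further out; the line of Chil1 (5.49) and its place there use control signal below background and are not a measured level. Serpinf1 lies at 2.55, and Serpine2, Serpinb1a, Lcn2 and Hp lie between 1.23 and 1.77, where 430 to 831 named genes lie further out.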

How the data were processed

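Per the labels' protocols, Cy3-labelled cRNA from total RNA went onto one-colour Agilent arrays, 3 per group. The deposited files give each spot's intensity on a linear scale, background-subtracted within the array with no scaling between arrays. The array design is 028005 and the software Agilent Feature Extraction 11.0.1.1, per the file headers, while version 9.1 stands in the submitters' processing notes. All arrays lay on 1 slide in 1 scan, so no slide block was run. The authors' deposited value table of linear intensity correlated with log2 scanner values at 0.9995 or more; no source used here says how it was made, and its values are uncentred.

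From the log2 processed signal of each spot, the 75th percentile of the array's non-control spots was subtracted; outlier-flagged spots were dropped and spots of a probe averaged. Probes stayed in if all 3 arrays of either group were well above background (26152 of 55681 probes). A probe kept only through the icKO arrays, such as those of Il6, Il1b, Retnlg, Serpina3c, Serpina3f and Serpina3i, could hardly come out lower. Its adjusted p is then no test of direction. Probes were named through their unversioned RefSeq accession (26582 probes, 20145 genes; assembly GRCm38.p6, names only), and a gene is its brightest kept probe. Unnamed probes were tested by themselves. Groups were compared with limma 3.58.1 (lmFit, eBayes) in R 4.3.3, Benjamini-Hochberg adjusted over all 22278 features, threshold 0.05; every adjusted p comes from this test. Where no array of a group measured a probe, "at least" folds set the other group's mean against each array's lowest signal still called well above background (or the probe's own, if higher). The number of arrays limits the precision. Only the limma fit was tested on simulated data, made from the scaled and filtered values with independent noise. The scaling, the dim-probe filter, the choice of probe and the "at least" folds were not tested in this way.

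The members and gene lists were chosen with earlier results of these data known. Genes named are the members, up to 3 rising and 3 falling genes of each pathway list with the smallest p, a set listed whatever the result, and the 2 nearest profiles to each member; not all that this rule takes are printed. Hbb-bs, Hbb-bt, Retnlg, Csf3r, Camp, Serpina3b, Serpina3h and the Serpina1 genes were chosen after their values were seen. Other settings were normexp (offset 50, on median signals, a choice made after seeing that the files hold no mean signal), median, quantile and spike-in scaling (5 probes), the value table, other dim-probe filters, no outlier removal, averaging over the probes of a gene, eBayes with trend and robust options, a replicate block, slide row as a block, and leaving out each array.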

Additional observations from a re-analysis of the deposited data

How the results depend on the processing

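Leaving out each array in turn gave these ranges. Over all features, 2730 to 3236 rose and 4744 to 5797 fell. Other serpins gave 8 to 9 rising and 3 to 6 falling, other acute-phase proteins 8 to 10 and 1 to 3, the IL-6 and STAT3 list 6 and 0 to 2, the IL-1, TNF, NF-kB and C/EBP list 6 to 9 and 1, proteases and receptors 5 to 7 and 3, and lipocalin, chitinase-like and haptoglobin relatives 4 to 11 and 0 to 3. The described genes ranged from 5.21 to 5.84 for Serpina3n, 1.18 to 1.29 for Serpine2, 2.34 to 2.75 for Serpinf1, 1.05 to 1.70 for Serpinb1a, 1.18 to 1.75 for Lcn2, 5.01 to 5.85 for Chil1 and 1.28 to 2.27 for Hp. With normexp correction Serpina3n moved to 4.46, Serpine2 to 0.71 and Chil1 to 2.04. Median scaling moved Serpine2 to 1.39, and spike-in scaling moved Serpine2 to 1.67, Serpinf1 to 2.99 and Lcn2 to 1.88.

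With spike-in scaling 7175 features rose and 1680 fell; 1 other serpin and 1 other acute-phase protein fell, 12 IL-6 and STAT3 genes rose and 0 fell, 20 IL-1, TNF, NF-kB and C/EBP genes rose and 0 fell, and 0 relatives fell. With median scaling 3657 features, 4 other serpins, 1 acute-phase protein, 1 IL-6 and STAT3 gene, 0 IL-1, TNF, NF-kB and C/EBP genes and 0 relatives fell. Without a filter on dim probes 2127 features rose and 3996 fell; 2 other serpins, 1 acute-phase protein, 0 IL-6 and STAT3 genes, 0 IL-1 list genes and 0 relatives fell, while 4 IL-1 list genes, 5 proteases and receptors and 3 relatives rose. Requiring signal on all 6 arrays left 4 other serpins rising. With quantile normalization, the authors' value table or the replicate block, 1 acute-phase protein fell. The same replicate numbers do not pair the samples (correlations of deviations -0.05, -0.13 and 0.00); with that block 2797 features rose and 5084 fell, 1 IL-6 and STAT3 gene fell and 1 relative fell. With slide row as a block, also 1 and 1. The causes were not tested, beyond the constant shifts that the scalings add.

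Signs turned for Lcn12 (0.12), Serpinb8 (0.0222), Lifr (0.0308), Saa1 (0.29), Tead1 (0.0434), Cdh5 (0.29), Tnnt2 (0.0607), Csf3r (0.18) and Camp (0.16) with spike-in scaling, for Saa1 (0.0094) and Cdh5 (0.0072) with median scaling, for F10 (0.0701) and Tnnt2 (0.15) with quantile normalization, for F10 (0.14) and Tnnt2 (0.15) in the authors' value table, for Il6st without icKO 3 (-0.0023) and for Serpina1e without control 2 (0.27, another probe being then the brightest), whose values ranged from -2.42 to 0.27 as each array was left out. Of 77 other genes compared, 32 lost or gained a call in at least 1 of 18 settings. Dim probes (Chil1 controls, Saa3, Il6) are limited by signal over background.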
